A study of Homo sapiens with 4 samples.

Results

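Protocadherins are cadherin-type adhesion proteins, and their genes were followed in 2 established human breast cancer lines, Hs578T and MDA-MB231, in which the gluconeogenic enzyme fructose-1,6-bisphosphatase (FBP1) had been expressed. All probe sets whose annotated symbol begins with PCDH were taken from the array table, with no filter on intensity, which gave 46 of 33297 probe sets. Of these, 43 list a single protocadherin and cover 42 genes. They comprise 13 PCDHA probe sets (12 genes), 18 PCDHB probe sets (16 protein-coding genes and 2 pseudogenes), 1 PCDHG probe set and 11 probe sets of non-clustered genes. The other 3 list several protocadherins and are kept apart: 1 covers the PCDHA genes together and 2 cover the X- and Y-linked pair PCDH11X and PCDH11Y. PCDHA9, PCDHAC1 and PCDHAC2 were annotated only in the shared PCDHA probe set, and PCDHGC3, PCDHGC4, PCDHGC5 and the PCDHG genes other than PCDHGB4 were not analysed here. The family was chosen by its FBP1 minus control values on these arrays, which were known when it was picked, so those values are given as a description, with no test.

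The 4 arrays were Hs578T expressing FBP1, Hs578T control, MDA-MB231 expressing FBP1 and MDA-MB231 control, 1 array each. Per the labels, both lines are basal-like breast cancer, FBP1-expressing stable clones were selected, and total RNA came from cells in log-phase growth in medium with serum. The labels do not say how many clones an FBP1 array represents or what the control cells carried. In every change given below, FBP1 expression and the selection of clones therefore cannot be told apart. Values are log2 expression as deposited, and a change is FBP1 minus control on that scale, so that −1 is a 2-fold decrease. With 1 array per group, no change within a line has a replicate check.

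FBP1 itself was 13.35 in Hs578T expressing FBP1, against 6.35 in Hs578T control, and 13.07 in MDA-MB231 expressing FBP1, against 9.83 in MDA-MB231 control. FBP1 RNA was thus higher on the FBP1 array of each line, by 128-fold in Hs578T and 9.44-fold in MDA-MB231, where the control level was higher. The values do not separate introduced FBP1 RNA from the cells' own. Whether the unlike control levels bear on other differences between the lines was not tested. Array medians over all probe sets lay between 7.83 and 7.86. Fibroblast markers were called higher in Hs578T than in MDA-MB231 by limma for 8 of 8 genes, where 16.0% of all probe sets with a gene were. Of 5 measured epithelial junction markers, 4 were called lower, where 18.7% of all probe sets with a gene were.

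Clustered protocadherins are encoded in tandem on chromosome 5 as the PCDHA, PCDHB and PCDHG clusters. Each PCDHA or PCDHG transcript joins its own variable exon to constant exons shared within the cluster, whereas each PCDHB gene is encoded by its own exon and has no shared constant part. The proteins bind like to like between cells and are best known from neurons, where each cell uses a few of the many promoters and the combination acts as a surface label. Most of the alternative promoters carry a conserved element with the core CGCT that binds CTCF, the factor that with cohesin loops promoters to distant enhancers. DNA methylation of these promoters silences them.

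Because the PCDHB genes were lower together in Hs578T, their promoters are shown first. RefSeq promoters of GRCh38.p14, 250 bases before to 50 bases after a gene's start, were present for 14 of the 16 protein-coding PCDHB genes. The word GGTGGCGCTGCAG is the longest that at least 10 of these promoters share, and was picked after they had been read. Each line below gives the best match on the gene's strand, which is the plus strand in each case, in capitals with up to 12 flanking bases in lower case.
PCDHB1, chr5:141051336-141051372: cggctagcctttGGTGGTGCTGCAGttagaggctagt
PCDHB2, chr5:141094543-141094579: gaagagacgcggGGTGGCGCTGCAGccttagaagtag
PCDHB3, chr5:141100392-141100428: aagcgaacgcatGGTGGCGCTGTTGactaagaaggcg
PCDHB4, chr5:141121722-141121758: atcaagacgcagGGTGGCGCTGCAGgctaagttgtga
PCDHB5, chr5:141135178-141135214: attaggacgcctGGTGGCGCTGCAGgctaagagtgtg
PCDHB7, chr5:141172565-141172601: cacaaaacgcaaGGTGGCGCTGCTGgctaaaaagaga
PCDHB8, chr5:141177776-141177812: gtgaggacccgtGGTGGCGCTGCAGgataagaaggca
PCDHB16, chr5:141182309-141182345: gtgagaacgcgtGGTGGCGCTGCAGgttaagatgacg
PCDHB9, chr5:141187073-141187109: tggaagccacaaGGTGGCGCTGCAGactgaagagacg
PCDHB10, chr5:141192298-141192334: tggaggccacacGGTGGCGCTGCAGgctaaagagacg
PCDHB12, chr5:141208642-141208678: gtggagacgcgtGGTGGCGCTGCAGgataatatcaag
PCDHB13, chr5:141213864-141213900: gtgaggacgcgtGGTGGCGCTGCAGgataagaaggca
PCDHB14, chr5:141223262-141223298: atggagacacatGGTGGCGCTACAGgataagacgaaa
PCDHB15, chr5:141245313-141245349: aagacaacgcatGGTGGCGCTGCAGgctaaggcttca
The exact word stood in 10 of the 14 PCDHB promoters, against 0.0427% of all 35116 promoters in the table, on either strand. Counted from 1 at the 5′ end of the word, PCDHB7 differed by A12T, PCDHB14 by G10A and PCDHB3 by C11T and A12T. PCDHB1 differed by C6T, which lies in the CGCT core. The shorter word GTGGCGCT lies within the longer one and was picked as the commonest 8-letter word with that core in these promoters. It was present in 13 of the 14 PCDHB promoters, PCDHB1 being the exception, and in 1.15% of all promoters. Both words were picked from the PCDHB promoters, so their high shares there follow from that choice. The count over all promoters includes those of PCDHB. The core CGCT alone was in 70.0% of all promoters and in 14 of 14 PCDHB promoters, so its presence separates little. The match began between 84 and 2 bases before the annotated start. The median GC content was 40.8% for the PCDHB promoters and 58.7% for all promoters.

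The same word was not found in the promoters of the other clusters. None of 13 PCDHA and none of 20 PCDHG promoters held it or a version with up to 2 differences, and the search covered these letters only. For comparison, the best matches in PCDHA10 and PCDHGB4, the members outside the PCDHB group with the largest changes in Hs578T, are shown in the same way.
PCDHA10, chr5:140855840-140855876: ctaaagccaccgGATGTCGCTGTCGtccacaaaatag
PCDHGB4, chr5:141387643-141387679: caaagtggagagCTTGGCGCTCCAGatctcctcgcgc
PCDHA10 differed from the PCDHB word by G2A, G5T, C11T and A12C, and PCDHGB4 by G1C, G2T and G10C. Both kept the core CGCT within the match. The full promoter windows of PCDHB15, which was among the members with the largest decrease, and of PCDHB1, which showed none, follow, with the match in capitals (GRCh38.p14, plus strand).
PCDHB15, chr5:141245145-141245444: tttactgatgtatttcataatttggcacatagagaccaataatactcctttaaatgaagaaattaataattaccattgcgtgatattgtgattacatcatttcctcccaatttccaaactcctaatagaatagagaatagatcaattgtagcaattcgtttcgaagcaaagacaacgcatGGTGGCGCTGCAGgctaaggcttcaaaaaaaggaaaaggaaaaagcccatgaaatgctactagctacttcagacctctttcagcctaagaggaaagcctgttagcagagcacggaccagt
PCDHB1, chr5:141051124-141051423: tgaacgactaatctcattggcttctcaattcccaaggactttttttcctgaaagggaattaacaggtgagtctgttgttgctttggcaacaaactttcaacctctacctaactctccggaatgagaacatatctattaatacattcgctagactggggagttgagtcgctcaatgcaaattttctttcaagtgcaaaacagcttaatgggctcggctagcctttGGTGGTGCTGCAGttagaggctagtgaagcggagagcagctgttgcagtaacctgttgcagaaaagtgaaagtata
A match is a description of letters and does not show binding.

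In Hs578T, the PCDHB genes were lower with FBP1 almost throughout the cluster. Of 18 PCDHB probe sets, 17 were below control, where 44.5% of all probe sets with a gene were, 16 by at least 1.5-fold and 13 by at least 2-fold. The median change was −1.11, a 2.16-fold decrease, with a range of −1.69 to 0.21, against a median of 0.02 over the 21214 probe sets with a gene. Over all 43 single-gene members, 17 were at least 1.5-fold lower, where 1.62% of all probe sets with a gene were, and 1 was at least 1.5-fold higher, where 1.32% were. At 2-fold, 13 members were lower, against 0.410% of all probe sets, and 0 were higher, against 0.255%. Ranked from the lowest change in Hs578T, 14 PCDHB probe sets were among the first 100 of 21214 and 16 among the first 200. The plot of changes in chromosomal order shows the decrease running from PCDHB2 to PCDHB15.

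**Figure D1:**
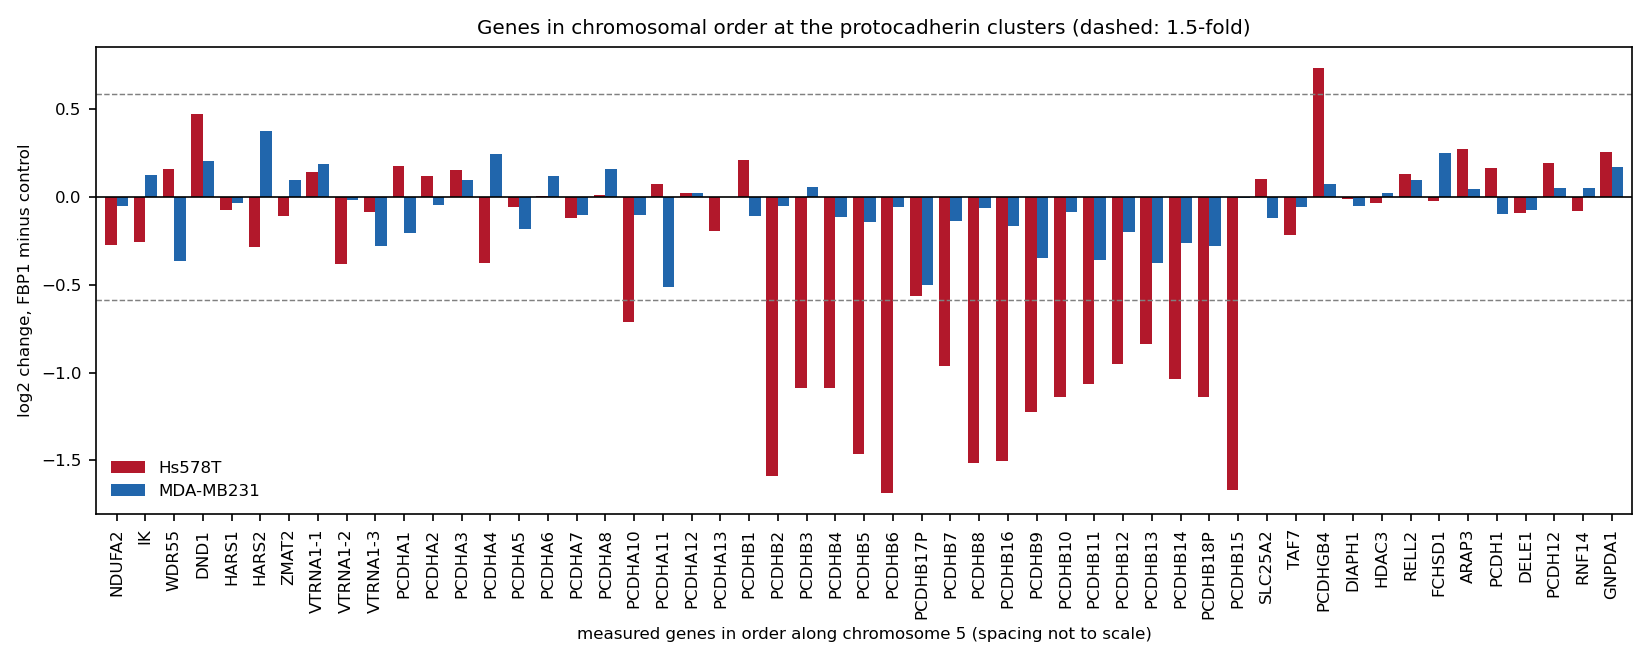
Log2 change with FBP1 (FBP1 minus control, 1 array each) of measured genes in their order along chromosome 5, with Hs578T bars left of MDA-MB231 bars and dashed lines at 1.5-fold. In Hs578T the bars from PCDHB2 to PCDHB15 reach −0.56 to −1.69, while the genes on either side stay within 1.5-fold except PCDHA10 and PCDHGB4.

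The largest decreases in Hs578T were in PCDHB6, PCDHB15, PCDHB2, PCDHB8, PCDHB16 and PCDHB5. PCDHB6 was 6.31 in Hs578T expressing FBP1, against 7.998 in Hs578T control, and 7.35 in MDA-MB231 expressing FBP1, against 7.41 in MDA-MB231 control. Its change was −1.69 in Hs578T, a 3.22-fold decrease, and −0.06 in MDA-MB231, and the Hs578T FBP1 array was the lowest of the 4. PCDHB15 was 7.32 with FBP1 and 8.98 in control Hs578T, and 6.50 with FBP1 and 6.51 in control MDA-MB231. It was 3.18-fold lower with FBP1 in Hs578T but still stood above both MDA-MB231 arrays.

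PCDHB2 was 8.21 with FBP1 and 9.80 in control Hs578T, and 9.48 with FBP1 and 9.54 in control MDA-MB231. PCDHB8 was 5.30 with FBP1 and 6.82 in control Hs578T, and 7.53 with FBP1 and 7.59 in control MDA-MB231. These decreases (−1.59 and −1.52) left Hs578T expressing FBP1 below every other array. The PCDHB8 reading of 5.30 there is dim, below the 25th percentile of all probe set means (6.16), so the size of its change is less certain. PCDHB16 was 7.65 with FBP1 and 9.16 in control Hs578T, and 9.02 with FBP1 and 9.18 in control MDA-MB231. PCDHB5 was 8.56 with FBP1 and 10.02 in control Hs578T, and 10.54 with FBP1 and 10.68 in control MDA-MB231. For PCDHB16 the control arrays of the lines differed by 0.02, and for PCDHB5 the MDA-MB231 arrays were both above the Hs578T arrays.

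Another set of PCDHB genes was about 2-fold lower in Hs578T. PCDHB9 was 7.88 with FBP1 and 9.11 in control Hs578T, and 9.26 with FBP1 and 9.61 in control MDA-MB231. PCDHB10 was 7.34 with FBP1 and 8.48 in control Hs578T, and 7.92 with FBP1 and 8.01 in control MDA-MB231. Their changes in Hs578T were −1.23 and −1.14. PCDHB3 was 7.18 with FBP1 and 8.27 in control Hs578T, and 7.04 with FBP1 and 6.98 in control MDA-MB231. PCDHB4 was 5.84 with FBP1 and 6.92 in control Hs578T, and 6.32 with FBP1 and 6.43 in control MDA-MB231. Both stood at −1.09 in Hs578T, and PCDHB3 was the PCDHB probe set with a positive change in MDA-MB231 (0.06). The PCDHB4 reading in Hs578T expressing FBP1 was also below 6.16.

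PCDHB11 was 7.48 with FBP1 and 8.55 in control Hs578T, and 8.42 with FBP1 and 8.78 in control MDA-MB231. PCDHB14 was 8.45 with FBP1 and 9.49 in control Hs578T, and 8.96 with FBP1 and 9.22 in control MDA-MB231. These members were lower with FBP1 in both lines, by −1.06 and −1.04 in Hs578T and by −0.36 and −0.26 in MDA-MB231. PCDHB7 was 7.14 with FBP1 and 8.10 in control Hs578T, and 6.66 with FBP1 and 6.79 in control MDA-MB231. PCDHB12 was 7.28 with FBP1 and 8.23 in control Hs578T, and 7.95 with FBP1 and 8.15 in control MDA-MB231. PCDHB13 was 6.97 with FBP1 and 7.81 in control Hs578T, and 8.20 with FBP1 and 8.58 in control MDA-MB231. The changes of PCDHB7, PCDHB12 and PCDHB13 in Hs578T, −0.96, −0.95 and −0.84, were past 1.5-fold and under 2-fold.

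The pseudogenes and PCDHB1 completed the group. PCDHB18P was 7.42 with FBP1 and 8.56 in control Hs578T, and 7.26 with FBP1 and 7.54 in control MDA-MB231. PCDHB17P was 6.69 with FBP1 and 7.26 in control Hs578T, and 6.46 with FBP1 and 6.96 in control MDA-MB231. The change of PCDHB18P in Hs578T was −1.14, and that of PCDHB17P (−0.56) was just inside 1.5-fold (0.585). PCDHB1 was 5.16 with FBP1 and 4.95 in control Hs578T, and 5.20 with FBP1 and 5.31 in control MDA-MB231. Every array read it below 6.16, and whether a decrease could show at that level was not tested.

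**Figure D2:**
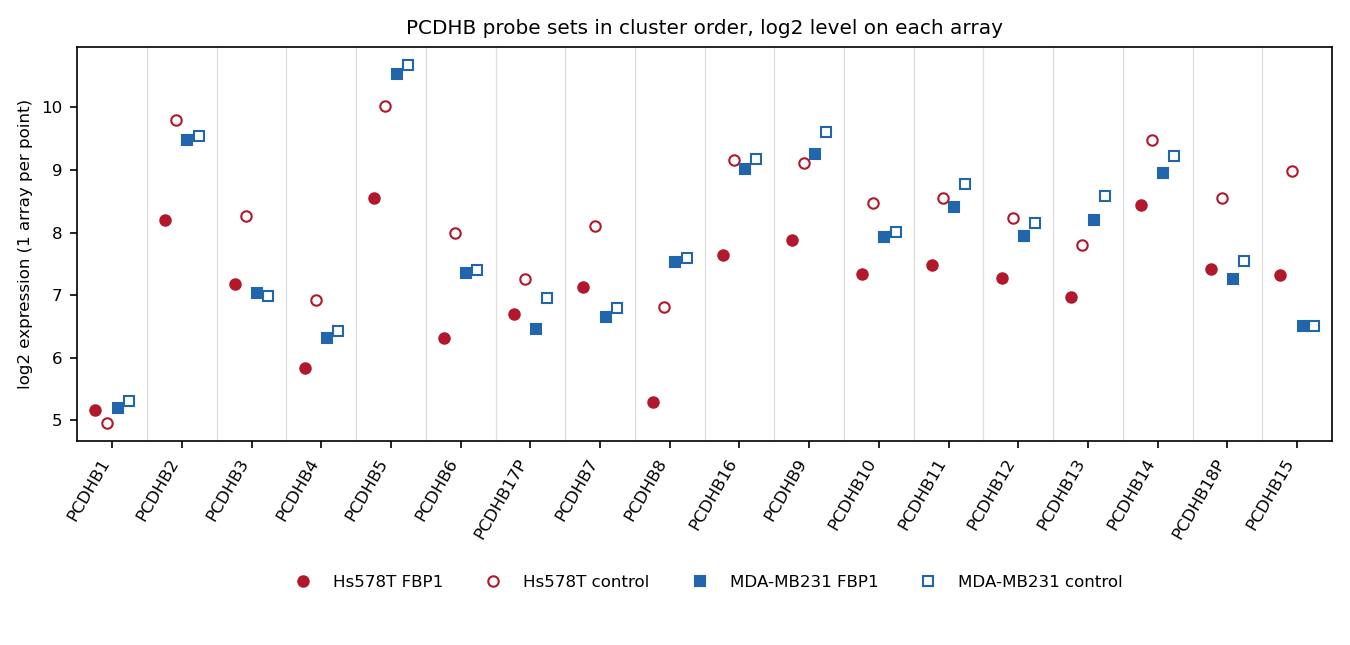
Log2 expression of the 18 PCDHB probe sets in cluster order, 1 point per array, with filled symbols for FBP1 and open symbols for control arrays. For 12 of the 18 the Hs578T FBP1 array is the lowest of the 4, and the MDA-MB231 points lie close together.

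The Hs578T FBP1 array was the lowest of the 4 for 12 of 18 PCDHB probe sets, against 20.8% of all probe sets with a gene. The lines were closer on the control arrays: Hs578T control was above MDA-MB231 control for 11 of the 18, as it was for 10501 of all 21214 probe sets with a gene, and the median PCDHB difference, Hs578T minus MDA-MB231, was 0.27. Between the FBP1 arrays that median was −0.63, with Hs578T lower for 13 of 18, against 9660 of 21214. The change in Hs578T was below that in MDA-MB231 for 17 of 18, by a median of −0.93, against 9541 of 21214 and a median of 0.03 over all probe sets with a gene. A difference between 2 changes leaves no residual degree of freedom with 4 arrays and was not tested.

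Across the PCDHB probe sets, which share the same arrays and have similar sequences, the order of levels was alike in the lines. Hs578T and MDA-MB231 levels correlated at r = 0.78 and rho = 0.80 on the FBP1 arrays and at r = 0.79 and rho = 0.73 on the control arrays (n = 18 probe sets). The 8 probe sets from PCDHB2 to PCDHB8 had a median change of −1.28 in Hs578T, and the 9 from PCDHB16 to PCDHB15 one of −1.14. Members with the exact promoter word had changes of −1.67 (PCDHB15) to −0.84 (PCDHB13). That span holds the values of PCDHB3, PCDHB7 and PCDHB14, whose promoters differ from the word. PCDHB1, whose promoter also differs, lay outside the span at 0.21, on levels below 6.16. A relation between the word and the change was not tested. PCDHB genes are similar in sequence, and probes for 1 of them may bind RNA of others, so the values of the members are not independent.

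In MDA-MB231, the PCDHB probe sets stayed near control. Of the 18, 17 were below 0, where 51.4% of all probe sets with a gene were, but 0 of 43 single-gene members were past 1.5-fold in either direction, where 0.363% of all probe sets were lower and 0.424% higher. At 2-fold these shares were 0.0236% lower and 0.0566% higher, against 0 members. The median PCDHB change was −0.14, with a range of −0.50 to 0.06. PCDHB17P (−0.50), PCDHB13 (−0.38), PCDHB11 (−0.36) and PCDHB9 (−0.35) had the lowest values. The probe sets with the largest decreases in Hs578T, PCDHB6 and PCDHB15, stood at −0.06 and −0.01. The 8 probe sets from PCDHB2 to PCDHB8 had a median of −0.09 in MDA-MB231, and the 9 from PCDHB16 to PCDHB15 one of −0.26.

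The PCDHA genes, whose isoforms share constant exons, showed no common direction. The positions of their probes are not given in the sources used here, so a single-gene value may include other isoforms of the cluster. The 13 PCDHA probe sets had a median change of 0.01 in Hs578T, with a range of −0.71 to 0.18, and of 0.00 in MDA-MB231, with a range of −0.51 to 0.25. In Hs578T 6 were below 0 and 7 above, and in MDA-MB231 6 were below and 6 above. PCDHA10 was the exception by size: it was 7.78 with FBP1 and 8.50 in control Hs578T, and 7.44 with FBP1 and 7.54 in control MDA-MB231. Its Hs578T change of −0.71 made it the member outside the PCDHB group with the largest decrease. PCDHA4 was 7.69 with FBP1 and 8.07 in control Hs578T, and 7.67 with FBP1 and 7.42 in control MDA-MB231, which are changes of −0.37 and 0.25. PCDHA11 was 6.67 with FBP1 and 6.59 in control Hs578T, and 6.37 with FBP1 and 6.88 in control MDA-MB231. Its change of −0.51 was the lowest of any member in MDA-MB231, short of 1.5-fold.

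The other PCDHA probe sets lay within 0.21 of control in each line. PCDHA3 was 8.94 with FBP1 and 8.78 in control Hs578T, and 8.83 with FBP1 and 8.73 in control MDA-MB231. PCDHA1 was 7.87 with FBP1 and 7.69 in control Hs578T, and 7.44 with FBP1 and 7.65 in control MDA-MB231. For both, the 4 arrays lay within 0.43 of each other. PCDHA7 was 7.78 with FBP1 and 7.89 in control Hs578T, and 7.45 with FBP1 and 7.55 in control MDA-MB231. PCDHA8 was 8.34 with FBP1 and 8.33 in control Hs578T, and 8.22 with FBP1 and 8.06 in control MDA-MB231. The changes of PCDHA5, PCDHA6, PCDHA7, PCDHA8, PCDHA12 and PCDHA13 were between −0.19 and 0.16. The 2 probe sets of PCDHA2 were dim on every array, at 5.56 and 5.99 in Hs578T expressing FBP1, 5.64 and 5.86 in Hs578T control, 5.44 and 5.71 in MDA-MB231 expressing FBP1 and 5.30 and 5.76 in MDA-MB231 control. The probe set annotated to 15 PCDHA genes was 6.65 with FBP1 and 6.66 in control Hs578T, and 6.56 with FBP1 and 6.57 in control MDA-MB231.

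PCDHGB4, a B-type gamma protocadherin, was higher with FBP1 in Hs578T, opposite to the PCDHB genes. It was 10.48 in Hs578T expressing FBP1, against 9.75 in Hs578T control, a 1.66-fold increase, and 8.17 in MDA-MB231 expressing FBP1, against 8.10 in MDA-MB231 control. It was the single member at least 1.5-fold higher in either line. Since PCDHG transcripts share constant exons and the probes' positions are not given in the sources used here, its signal may include other isoforms of the cluster.

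The non-clustered protocadherins, which lie singly in the genome and act in tissue patterning and signalling, stayed within 1.5-fold of control in both lines. Their 11 probe sets had a median change of 0.03 in Hs578T, with a range of −0.22 to 0.46, and of 0.02 in MDA-MB231, with a range of −0.33 to 0.32. Among the delta-1 genes, PCDH7 was 10.98 with FBP1 and 10.95 in control Hs578T, and 6.78 with FBP1 and 6.76 in control MDA-MB231. PCDH9 was 6.45 with FBP1 and 6.40 in control Hs578T, and 5.23 with FBP1 and 5.57 in control MDA-MB231. PCDH1, known from airway epithelium, was 8.04 with FBP1 and 7.87 in control Hs578T, and 8.17 with FBP1 and 8.26 in control MDA-MB231. PCDH7 was nearly equal with and without FBP1, and the PCDH9 value of −0.33 in MDA-MB231 rests on levels below 6.16.

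Among the delta-2 genes, PCDH18 was 11.84 with FBP1 and 11.38 in control Hs578T, and 6.59 with FBP1 and 6.90 in control MDA-MB231. Its changes, 0.46 and −0.31, had opposite signs. PCDH10, which binds the WAVE complex through NCKAP1 and is often silenced by methylation in tumours, was 8.11 with FBP1 and 8.32 in control Hs578T, and 6.99 with FBP1 and 6.93 in control MDA-MB231. PCDH19, mutated in an X-linked epilepsy, was 5.15 with FBP1 and 5.26 in control Hs578T, and 5.27 with FBP1 and 4.96 in control MDA-MB231. The value of 0.32 for PCDH19 in MDA-MB231 was the highest of any single-gene member there, at a dim level. PCDH8 was 7.26 with FBP1 and 7.26 in control Hs578T, and 7.18 with FBP1 and 7.26 in control MDA-MB231. PCDH17 was 7.06 with FBP1 and 7.03 in control Hs578T, and 7.06 with FBP1 and 6.97 in control MDA-MB231. PCDH8 and PCDH17 differed by at most 0.09 with FBP1 in either line.

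The remaining genes of this group were also within 1.5-fold of control. PCDH12, an endothelial protocadherin, was 7.15 with FBP1 and 6.96 in control Hs578T, and 7.03 with FBP1 and 6.98 in control MDA-MB231. PCDH15, a tip-link protein of hair cells, was 4.95 with FBP1 and 5.17 in control Hs578T, and 4.82 with FBP1 and 5.00 in control MDA-MB231. PCDH20 was 5.97 with FBP1 and 5.78 in control Hs578T, and 5.93 with FBP1 and 5.75 in control MDA-MB231. PCDH15 and PCDH20 were below 6.16 on all 4 arrays. The 2 probe sets of the PCDH11X and PCDH11Y pair are counted among the 3 that list several protocadherins, not among the 11 of this group. Their values are not given because they include a Y-linked gene.

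**Figure D3:**
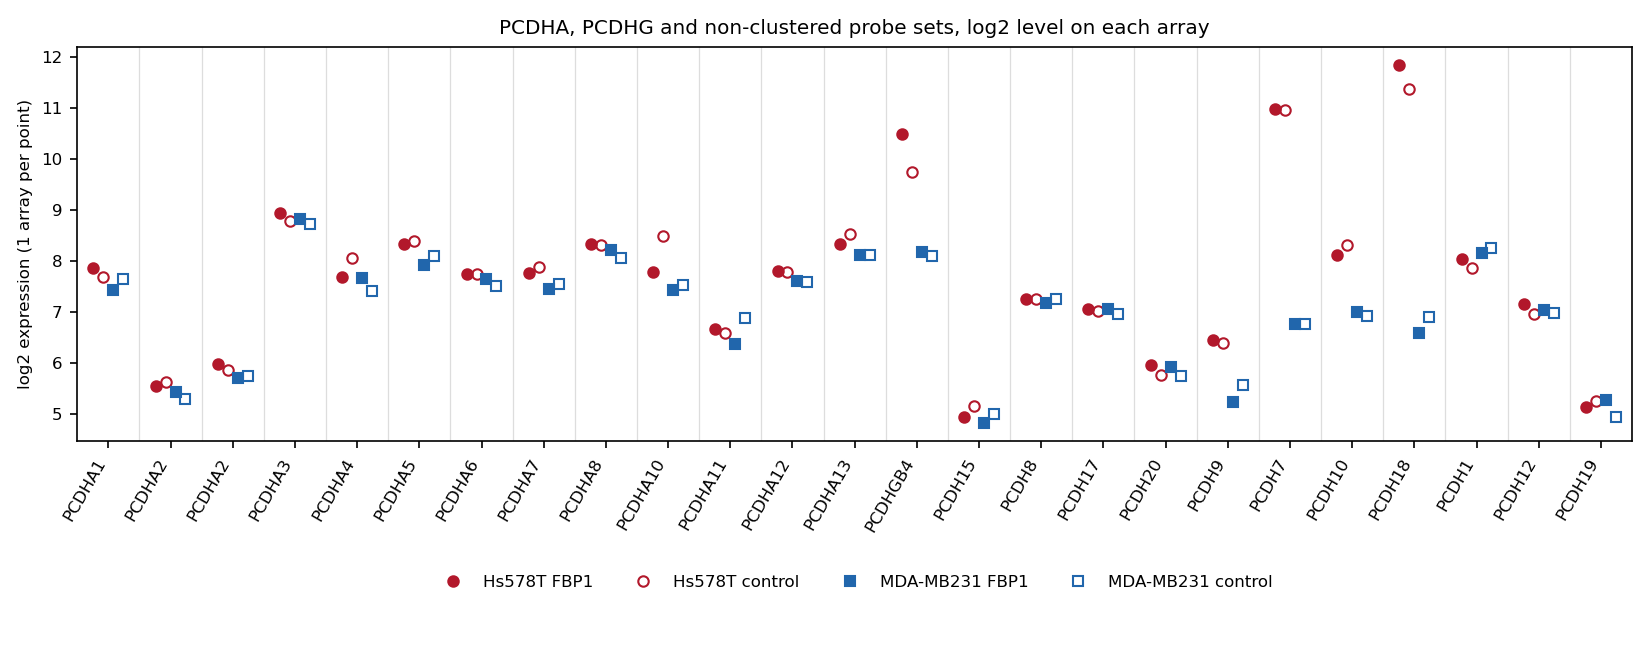
Log2 expression of the 13 PCDHA, 1 PCDHG and 11 non-clustered probe sets, 1 point per array, with filled symbols for FBP1 and open symbols for control arrays. PCDHGB4, PCDH7, PCDH10 and PCDH18 are higher on both Hs578T arrays than on both MDA-MB231 arrays, and PCDHA10 stands apart in the Hs578T control.

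The lines were then compared with limma over all 4 arrays, with a term for FBP1. Of the 43 single-gene members, 9 were called higher in Hs578T, where 16.0% of all probe sets with a gene were. Another 4 were called lower, where 18.7% were. With counts this small, nothing about the members as a group is read from them. PCDH18 and PCDH7 differed most. PCDH18 was higher in Hs578T by 4.86 log2 (SE 0.20, adjusted p = 9.2e-05) and PCDH7 by 4.20 (SE 0.10, adjusted p = 2.5e-05). PCDHGB4 was higher by 1.98 (SE 0.17, adjusted p = 0.0011). Among the other non-clustered genes, PCDH10 was higher by 1.25 (SE 0.11, adjusted p = 0.0012) and PCDH9 by 1.03 (SE 0.13, adjusted p = 0.0035), the MDA-MB231 levels of PCDH9 being below 6.16. For each of these 5 genes both Hs578T arrays were above both MDA-MB231 arrays. Each group had 1 array, so these p-values take the arrays of a line as its repeats. Their SEs rest on 1 residual degree of freedom, set by how the FBP1 change differs between lines. The prior over all probe sets with a gene adds 4.27 degrees of freedom.

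Among the clustered genes, PCDHB15 (1.64, SE 0.38, adjusted p = 0.023), PCDHB7 (0.89, SE 0.21, adjusted p = 0.024), PCDHA10 (0.65, SE 0.17, adjusted p = 0.033) and PCDHA7 (0.34, SE 0.10, adjusted p = 0.0499) were called higher in Hs578T. PCDHB8 (−1.50, SE 0.33, adjusted p = 0.021), PCDHB5 (−1.32, SE 0.30, adjusted p = 0.024), PCDHB13 (−0.999, SE 0.14, adjusted p = 0.0049) and PCDHB9 (−0.94, SE 0.22, adjusted p = 0.023) were called lower. These averages mix unlike pairs of arrays and include the Hs578T FBP1 array, which was below its control for most PCDHB genes. Their SEs rest in part on how the FBP1 changes of the lines differ, values known when the family was picked. The same holds for the SEs of the other members. The calls of all members, the non-clustered ones included, are therefore a description and no independent test. PCDHB15 differed between Hs578T and MDA-MB231 by 0.81 on the FBP1 arrays and by 2.48 on the control arrays, PCDHB8 by −2.23 and −0.77, and PCDHB5 by −1.98 and −0.66. PCDHB3 and PCDHB18P were not called (adjusted p = 0.10 and 0.090) and differed by 0.14 and 0.16 on the FBP1 arrays and by 1.29 and 1.02 on the control arrays. PCDHB6, with a difference of −1.04 on the FBP1 arrays and 0.59 on the control arrays, had a limma adjusted p of 0.69. Fitted over all probe sets of the table, limma called 5 members higher and 1 lower, and of the clustered genes PCDHGB4 and PCDHB13 alone. The share of all probe sets called in that fit is not given here.

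**Figure D4:**
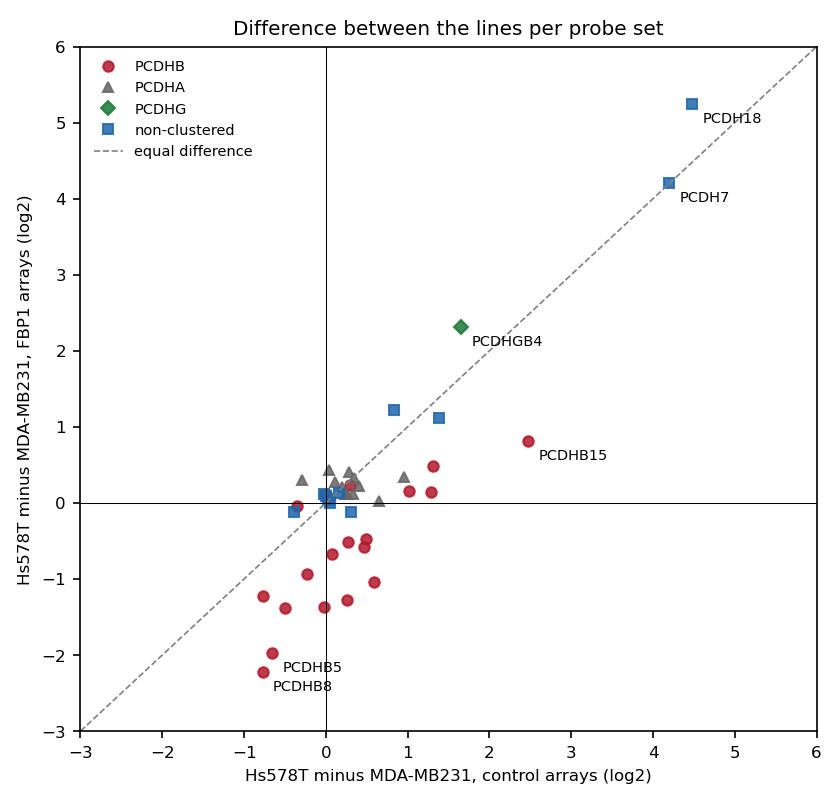
Difference between the lines (Hs578T minus MDA-MB231, log2) of each single-gene protocadherin probe set, on the FBP1 arrays (vertical axis) and on the control arrays (horizontal axis), with a dashed line where they are equal. PCDH7 lies on the line at 4.20 and 4.19, whereas 17 of the 18 PCDHB points lie below it.

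A limma term for FBP1 over both lines rests on the same values by which the family was chosen, so it is no test of the members and nothing is read from it. It called 0 of the 43 members, as it did of all 21214 probe sets with a gene (0%). For completeness beside that 0, 11 members had an unadjusted p under 0.05, a count set by that choice, where 5.04% of all probe sets did.

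The genes around the clusters did not share the decrease. The 10 measured genes before PCDHA1, from NDUFA2 to the vault RNA VTRNA1-3, had changes of −0.38 to 0.47 in Hs578T, with a median of −0.10. SLC25A2, a mitochondrial ornithine carrier, and TAF7, a TFIID subunit, lie between the PCDHB and PCDHG genes. SLC25A2 was 7.23 with FBP1 and 7.13 in control Hs578T, and 6.92 with FBP1 and 7.04 in control MDA-MB231. TAF7 was 9.33 with FBP1 and 9.54 in control Hs578T, and 9.86 with FBP1 and 9.92 in control MDA-MB231. The 8 genes beyond PCDHGB4 that are not protocadherins, from DIAPH1 to GNPDA1, had changes of −0.09 to 0.27 in Hs578T. The flanking gene VTRNA1-3 was 8.41 with FBP1 and 8.50 in control Hs578T, and 8.43 with FBP1 and 8.71 in control MDA-MB231. DIAPH1, which encodes an actin-nucleating formin, was 10.39 with FBP1 and 10.39 in control Hs578T, and 10.42 with FBP1 and 10.46 in control MDA-MB231. None of these 20 neighbours was past 1.5-fold in either line. Of all probe sets with a gene, 1.62% were lower and 1.32% higher by that much in Hs578T. In MDA-MB231 these shares were 0.363% and 0.424%, so 0 of 20 is near the share of all probe sets. Gene order was taken from RefSeq, and measured genes only were counted.

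Regulators and partners of the protocadherins were also examined. Of 18 measured chromatin regulators, 0 were past 1.5-fold in either line, with median changes of 0.07 in Hs578T and −0.11 in MDA-MB231. CTCF was 10.61 with FBP1 and 10.46 in control Hs578T, and 10.75 with FBP1 and 10.96 in control MDA-MB231. SMCHD1, a structural protein that represses the clusters in mice, was 11.66 with FBP1 and 11.39 in control Hs578T, and 11.55 with FBP1 and 11.61 in control MDA-MB231. The de novo methyltransferase gene DNMT3B was 8.59 with FBP1 and 8.17 in control Hs578T, and 8.64 on both MDA-MB231 arrays. Its 0.42 was the highest change of the list in Hs578T. Of 20 measured effectors and proteases, which include WAVE complex subunits and gamma-secretase, 0 were past 1.5-fold, with medians of −0.06 and 0.01. Of all probe sets with a gene, 1.62% were lower and 1.32% higher by 1.5-fold in Hs578T, and 0.363% and 0.424% in MDA-MB231. Counts of 0 in lists this short are near those shares, and nothing is read from them.

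Among other cadherins, 2 genes were past 1.5-fold, both in Hs578T, where 1.62% of all probe sets with a gene were lower by that much. Nothing about these lists is read from counts this small. Of 27 measured classical cadherins and catenins, CDH12 alone was past 1.5-fold, at 7.51 with FBP1 and 9.06 in control Hs578T, and 5.52 with FBP1 and 5.10 in control MDA-MB231. Of 24 measured large cadherins, the desmosomal gene DSC3 was past it, at 7.42 with FBP1 and 8.31 in control Hs578T, and 6.14 with FBP1 and 5.99 in control MDA-MB231. Both lists had medians near 0, at 0.03 and −0.01 in Hs578T and 0.05 and −0.02 in MDA-MB231.

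Markers of cell types were set beside the PCDHB values. Of 7 measured neural and glial markers, 0 were past 1.5-fold, with medians of 0.01 in Hs578T and 0.03 in MDA-MB231. At the shares of all probe sets given above, a list this short would hold few or none, so nothing is read from that count. Of 8 fibroblast markers, FAP was lower in Hs578T, at 6.67 with FBP1 and 8.01 in control, and LUM in MDA-MB231, at 6.54 with FBP1 and 7.67 in control. The list median was −0.11 in Hs578T, with 5 members below 0 and 3 above. Luminal markers had a median of 0.22 in Hs578T, with 8 of 9 above 0 and SPDEF at −0.43. The 5 measured basal markers were all above 0 there, with KRT14 at 9.62 with FBP1 and 8.85 in control. Of all probe sets with a gene, 11766 of 21214 were above 0 in Hs578T. So were 5 of 5 endothelial, 3 of 4 leukocyte, 3 of 5 epithelial junction and 3 of 6 mesenchymal markers. The part of these differences in the PCDHB values was not tested. In RNA of pooled cells, fewer cells using a promoter and less RNA per cell cannot be told apart.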

How the data were processed

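RNA of 4 samples was measured on Affymetrix arrays, 1 for each line and construct. The deposited table held log2 expression values of 33297 probe sets. The log2 scale was read from the values, and Affymetrix Expression Console 1.1.2800.28061 was used per the submitters' processing notes; background correction, normalization and summarization are not given in the sources used here. Genes came from the platform annotation, under which 19460 probe sets have 1 gene, 1754 have several and 12083 are unnamed; all 47 annotated protocadherins matched a current Entrez gene. Changes within a line were counted at 1.5-fold and 2-fold. The lines were compared with limma 3.58.1 in R 4.3.3 (terms for line and construct, trended prior, 1 residual degree of freedom, prior of 4.27). Benjamini-Hochberg adjustment was over 21214 probe sets with a gene, called at 0.05. On simulated data with no FBP1 effect, limma recovered 80% of 50 line differences of 1 log2, with 15 false calls. That does not show how the fit behaves where the FBP1 change differs between lines. The number of arrays limits the precision. Members, lists and the rule for named genes (largest changes per line, largest differences between lines, every non-clustered member, list genes past 1.5-fold) were chosen with earlier results of these data known. Alternatives covered normalization, centring, dim probe sets, fold size, shared probe sets, 1 row per gene, prior and model terms. Promoters are RefSeq's, GRCh38.p14.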

Additional observations from a re-analysis of the deposited data

Results flagged for a closer look

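Of the genes named above and past 1.5-fold in at least 1 line, 5 had values of opposite sign in the lines, with 1 array pair each and no test of the difference. PCDHB3 stood at −1.09 in Hs578T and 0.06 in MDA-MB231. CDH12 stood at −1.55 in Hs578T and 0.42 in MDA-MB231. DSC3 stood at −0.89 in Hs578T and 0.15 in MDA-MB231. FAP stood at −1.34 in Hs578T and 0.13 in MDA-MB231. KRT14 stood at 0.77 in Hs578T and −0.19 in MDA-MB231. For PCDHB3, DSC3 and FAP the MDA-MB231 value is within 0.17, the SD of changes over all probe sets with a gene there. Such values are too small to give a direction any weight, and the KRT14 value is little past that SD. The MDA-MB231 levels of CDH12, DSC3 and FAP were below 6.16.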

How the results depend on the processing

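The PCDHB decrease in Hs578T kept its size under quantile normalization, median centring, the filter on dim probe sets, shared probe sets included, 1 row per gene and pseudogenes left out (the last chosen after the data were seen), with medians of −1.14 to −1.11; in MDA-MB231 the medians were −0.14 to −0.12. The PCDHA median in Hs578T, 0.01, turned to −0.00768 with quantile normalization, −0.00554 with median centring and −0.00038 with shared probe sets, so it has no direction. At 2-fold, 0 members in place of 1 were higher in Hs578T. Members called between the lines were 5 higher and 1 lower when all probe sets were fitted, against 9 and 4. With line alone as the term, 2 were lower. The shares of all probe sets called in these alternative fits are not given here. The adjusted p of PCDHB8 ranged from 0.012 to 0.050 and that of PCDHB9 from 0.014 to 0.11 over these fits. The cause of these shifts was not tested. The labels give no replicate numbers; with the line left out as a term (no replicate block), limma called 0 members for FBP1, as it did with it. Leaving out a replicate was not possible with 1 array per group. The dim levels of PCDHB1, PCDHA2, PCDH9, PCDH15, PCDH19 and PCDH20 limit what they can show, and PCDH9 is not among the calls where dim probe sets were left out.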
